A study of Homo sapiens with 4 samples.

Results

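The 2 mature strands of the miR-9 precursors, miR-9-5p and miR-9-3p, were described in human cortical interneurons differentiated in culture from H1 embryonic stem cells. They were taken by name, as hsa-miR-9-5p and hsa-miR-9-3p, from a table of 2656 human mature miRNAs, and both were found. The table holds read counts of 4 small RNA-seq libraries. Replicates 1 and 2 of the ethanol-exposed group came from cultures kept with around 50 to 100 mM ethanol for 7 days and then for a further day without it, and replicates 1 and 2 of the unexposed group came from cultures kept without ethanol for 7 days. All 4 cultures descend from the same stem cell line, so the spread between them includes no difference between donors.

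A miRNA precursor is an RNA hairpin from which the enzymes Drosha and Dicer cut a short duplex. One strand of the duplex, the guide, is kept by an Argonaute protein and directs it to messenger RNAs that pair with its seed (bases 2 to 8), while the other strand is mostly degraded. miR-9 is among the most abundant miRNAs of the vertebrate brain and is known for promoting the step from neural progenitors to neurons. Both of its strands are known to be active, miR-9-5p towards the transcriptional repressor REST and miR-9-3p (miR-9*) towards its cofactor CoREST.

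The mature strands are shown first because they are what the reads count. The sequences are from RefSeq (GRCh38.p14), 5′ to 3′, with the seed in capitals.
miR-9-5p: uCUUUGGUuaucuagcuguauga
miR-9-3p: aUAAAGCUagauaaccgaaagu

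miR-9-5p is 23 bases long and miR-9-3p is 22. Their seeds differ, and no other miRNA of the table for which a sequence was at hand carried the seed of either strand. Sequences were matched by name for 2367 of the 2656 miRNAs, which held 96.5% of all counts. The strands are complementary over 12 consecutive bases, from base 6 to base 17 of miR-9-5p and from base 5 to base 16 of miR-9-3p.

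The human genome holds 3 miR-9 genes, whose hairpins are shown to make clear which part of them the counts can and cannot tell apart. The mature strands are in capitals.
MIR9-1: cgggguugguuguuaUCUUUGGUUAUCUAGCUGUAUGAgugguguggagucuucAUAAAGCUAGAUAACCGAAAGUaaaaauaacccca
MIR9-2: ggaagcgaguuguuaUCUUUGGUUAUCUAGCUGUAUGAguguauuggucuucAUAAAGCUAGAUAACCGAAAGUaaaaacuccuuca
MIR9-3: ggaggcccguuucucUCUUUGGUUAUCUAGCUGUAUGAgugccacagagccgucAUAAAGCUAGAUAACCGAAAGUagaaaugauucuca

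MIR9-1 lies on chromosome 1 of GRCh38 from 156420341 to 156420429 on the minus strand, in an intron of C1orf61 (GENCODE 29). MIR9-2 lies on chromosome 5 from 88666853 to 88666939 on the minus strand, where it overlaps an exon of the long noncoding RNA gene LINC00461. MIR9-3 lies on chromosome 15 from 89368017 to 89368106 on the plus strand, within an intron of MIR9-3HG, a long noncoding RNA gene. Each host gene is transcribed from the same strand as the hairpin within it. The hairpins differ in the 14 to 16 bases between the strands and in their flanks, but the mature strands of all 3 are identical. Counts of mature strands therefore cannot be assigned to a gene, and a difference between libraries could come from any of the 3.

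The libraries held between 12100425 and 24858230 counts, and each exposed library was deeper than each unexposed library, so that depth and exposure cannot be told apart. The unexposed cultures also lay further from each other than the exposed cultures. Over the 72 miRNAs with a mean of at least 1000 CPM (counts scaled to a library of fixed size, after TMM scaling), the median difference between replicates was 0.18 on the log2 scale with ethanol and 0.40 without. The neuronal label was checked with 5 marker miRNAs of neurons other than miR-9-5p, which were counted in every library and summed to between 33415 CPM (unexposed replicate 1) and 55298 CPM (exposed replicate 1). Most of this sum was miR-128-3p (29351 CPM in unexposed replicate 1 and 48736 CPM in exposed replicate 1). miR-137-3p and miR-138-5p lay between 39.2 and 84.8 CPM, below miR-204-5p of choroid plexus (787 to 980 CPM) and miR-126-3p of endothelium (801 to 1012 CPM). The remaining markers, miR-124-3p (2190 to 5406 CPM) and miR-218-5p (971 to 1460 CPM), lay above miR-204-5p and miR-126-3p in every library. The list holds no miRNA that tells interneurons from other neurons. Of 7 miRNAs of pluripotent stem cells, miR-367-3p and miR-373-3p had 0 counts in every library, which allows up to 0.119 to 0.254 CPM per library (3 counts, on the same TMM scale), and all 7 summed to between 2.42 and 3.89 CPM. Summed levels of the other lists were 0 to 0.0777 CPM for leukocytes (miR-223-3p and miR-142-3p at 0 in every library), 75.7 to 116 CPM for oligodendrocytes, 80.2 to 111 CPM for mesenchyme, 81.1 to 163 CPM for epithelium, 798 to 988 CPM for choroid plexus and pigment epithelium, 807 to 1021 CPM for endothelium and 291 to 467 CPM for erythroid cells. The erythroid and endothelial sums were higher and the stem cell sum was lower in both exposed than in both unexposed libraries. The neuronal sum without miR-9-5p was also higher in both exposed libraries. Its gap was narrow, with 52659 CPM in exposed replicate 2 and 52559 CPM in unexposed replicate 2. Of the 863 miRNAs tested below, the groups did not overlap for 288 (33.4%). The stem cell sum was small, with 21 to 31 counts in a library for its largest member, miR-302b-3p. The part of these differences in the values below was not tested. The erythroid sum was nearly all miR-486-5p (449 and 466 CPM in exposed, 303 and 291 CPM in unexposed replicates 1 and 2), while miR-451a was at 0.0777 to 0.657 CPM and miR-144-3p had at most 1 count in a library, and for neither of these were the groups apart. Likewise, the oligodendrocyte sum was nearly all miR-219a-2-3p (71.8 to 113 CPM), with miR-219a-5p and miR-338-3p at 0.254 to 3.53 CPM.

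miR-9-5p was the most abundant of the 2656 miRNAs in each of the 4 libraries. Here and below, paired values are those of replicate 1 and then replicate 2, for cells with ethanol (exposed) and without it (unexposed). miR-9-5p had 4021361 and 4683578 counts with ethanol and 2996213 and 2024573 counts without. These were 18.1% and 18.8% of all counts with ethanol and 21.5% and 16.7% without, with a mean of 18.8% ± 2.00 (SD, n = 4 libraries). The unexposed cultures thus gave both the highest and the lowest share, with the exposed cultures between them. Counting error was small at this depth, and the 95% Wilson interval of the lowest share was 16.7 to 16.8%.

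**Figure D1:**
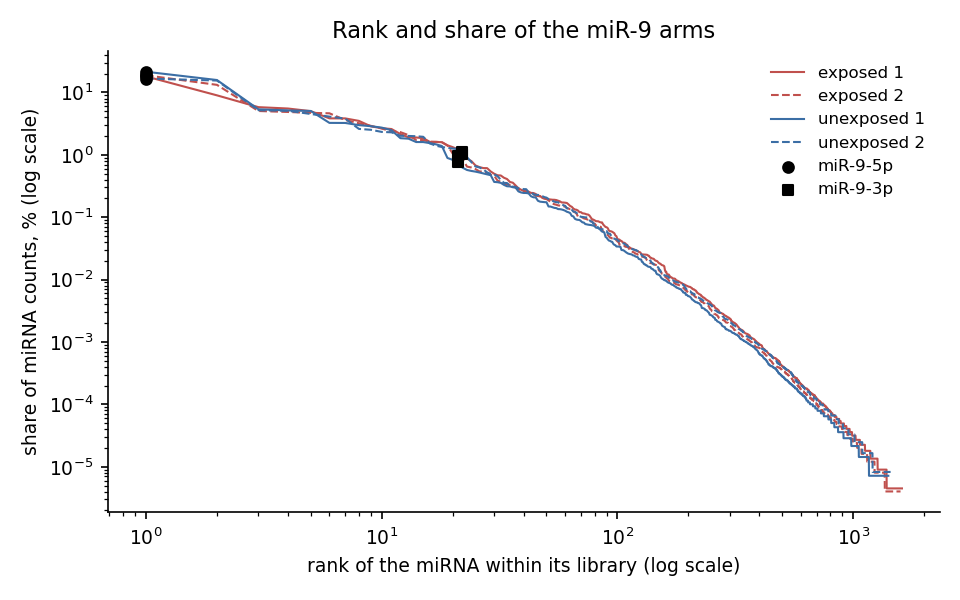
Share of all miRNA counts (%, log scale) against the rank of each miRNA within its library (log scale), with 1 line for each of the 4 libraries and black symbols for the miR-9 strands. miR-9-5p holds rank 1 with 16.7 to 21.5% of the counts, and miR-9-3p holds rank 21 or 22 with 0.759 to 1.13%.

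Next in order was miR-7-5p, a miRNA of neurons and endocrine cells, with 8.99% and 13.2% of the counts with ethanol and 15.8% and 15.5% without. A read spans a whole mature miRNA, so counts were compared between miRNAs without a correction for length. Differences in how well each miRNA is captured in a library were not corrected, so ratios between miRNAs or strands are ratios of counts. miR-9-5p exceeded miR-7-5p by 2.01-fold and 1.42-fold with ethanol and by 1.36-fold and 1.08-fold without. The order was the same in 4 of 4 libraries, but the excess in unexposed replicate 2 was small, and a two-sided exact sign-flip permutation test gave p = 0.125, the smallest that 4 libraries allow. The pair was picked by mean share in these same libraries, so the test cannot support its order. The rest of the 10 most abundant were miR-26a-5p, let-7f-5p, miR-128-3p, let-7g-5p, miR-99a-5p, let-7a-5p, miR-125b-5p and miR-103a-3p, with mean shares from 5.01% down to 2.45%. The 10 most abundant of each library, not the same 10 in all of them, took between 60.2% (exposed replicate 1) and 68.0% (unexposed replicate 1) of its counts.

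Grouped by seed, miR-9-5p alone also had a higher mean share than every family. The 11 miRNAs with the let-7 seed GAGGUAG, which let-7f-5p, let-7g-5p and let-7a-5p lead, took 15.2% and 18.3% of the counts with ethanol and 19.0% and 16.1% without. This was less than the share of miR-9-5p in 4 of 4 libraries. miR-9-3p was the 11th of 1913 seeds by mean share, next to the miR-181 family at 0.923%. It was above that family in 3 of 4 libraries and below it in unexposed replicate 1 (0.759% against 0.858%).

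miR-9-3p had 251263 and 241186 counts with ethanol and 105804 and 125434 counts without. Its share was 1.13% and 0.970% with ethanol and 0.759% and 1.04% without, with a mean of 0.974% ± 0.158 (SD, n = 4 libraries). Unexposed replicate 1, which had the highest share of miR-9-5p, had the lowest share of miR-9-3p. The strand ranked 22nd in exposed replicate 1 and unexposed replicate 2 and 21st in the other libraries. Just above it by mean share were miR-25-3p (1.18%) and miR-151a-3p (0.993%), and just below it were miR-27b-3p (0.738%) and let-7e-5p (0.643%). miR-25-3p was above it and miR-27b-3p and let-7e-5p were below it in 4 of 4 libraries (exact sign-flip permutation p = 0.125 each, the smallest possible). miR-151a-3p was above it in 2 of the 4 libraries, so the order of this pair did not hold against the spread (exact p = 1). These neighbours were picked by mean share in the same 4 libraries, so the test cannot support an order.

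Set against 12 miRNAs known for neurons, the strands were abundant. miR-9-5p was above all 12 in every library, and miR-9-3p was above 9 of them in every library and below miR-7-5p, miR-128-3p and miR-125b-5p in every library. For miR-124-3p, the classical miRNA of differentiated neurons, counts of miR-9-5p were 29.5 and 57.2 times as high with ethanol and 86.2 and 71.9 times as high without. Counts of miR-9-3p were 1.84 and 2.95 times those of miR-124-3p with ethanol and 3.04 and 4.45 times without. Each strand thus stood higher over miR-124-3p in both unexposed than in both exposed cultures, narrowly so for miR-9-3p (3.04 against 2.95 at the closest). The groups also did not overlap for the scaled level of miR-124-3p itself, as for 33.4% of all tested miRNAs.

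The ethanol comparison asked whether either strand changed after exposure. It used edgeR's quasi-likelihood test over the 863 miRNAs that passed the filter on low counts, both strands among them. Libraries were scaled by TMM, which matches the bulk of the miRNAs between libraries, and its factors were 1.13 and 0.979 with ethanol and 0.846 and 1.06 without. In bulk RNA, fewer cells that express a miRNA and less of it per cell cannot be told apart. Neither strand was past an unadjusted P of 0.05. Over all tested miRNAs 39 (4.52%) were, and 0 (0%) were past an adjusted p of 0.05 in edgeR, limma-voom or DESeq2. limma-voom had 31 and DESeq2 had 28 with an unadjusted P under 0.05.

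The scaled level of miR-9-5p was 159473 and 192417 CPM with ethanol and 254022 and 157352 CPM without. The groups overlapped, since the exposed cultures lay between the unexposed cultures. The means were 175945 ± 23295 CPM (SD, n = 2) and 205687 ± 68356 CPM (SD, n = 2). The log2 fold change, exposed over unexposed, was -0.23 (standard error 0.34, 95% confidence interval -1.01 to 0.56), with an adjusted p of 0.968 in edgeR. A two-sided exact permutation test of the 4 libraries gave p = 1, where the smallest possible is 0.333. The difference of miR-9-5p between the unexposed replicates, 0.69 on the log2 scale, was larger than that between the groups, and 62 of the 72 abundant miRNAs differed less between these replicates. Between the exposed replicates miR-9-5p differed by -0.27 (replicate 1 minus 2), and 43 of the 72 differed less.

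The direction rested on unexposed replicate 1. Without it the log2 fold change of miR-9-5p was 0.15, and without unexposed replicate 2 it was -0.56, with an unadjusted P of 0.0479 and an adjusted p of 0.433 in edgeR, where the lone unexposed library is assumed to vary like the exposed libraries. Without exposed replicate 1 it was -0.096 and without exposed replicate 2 it was -0.36. The value also depended on the scaling. With library size only, which compares the plain shares, it was -0.049, while the median of all tested miRNAs moved from -0.010 to 0.14, and with upper quartile scaling it was -0.32 and the median -0.12.

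**Figure D2:**
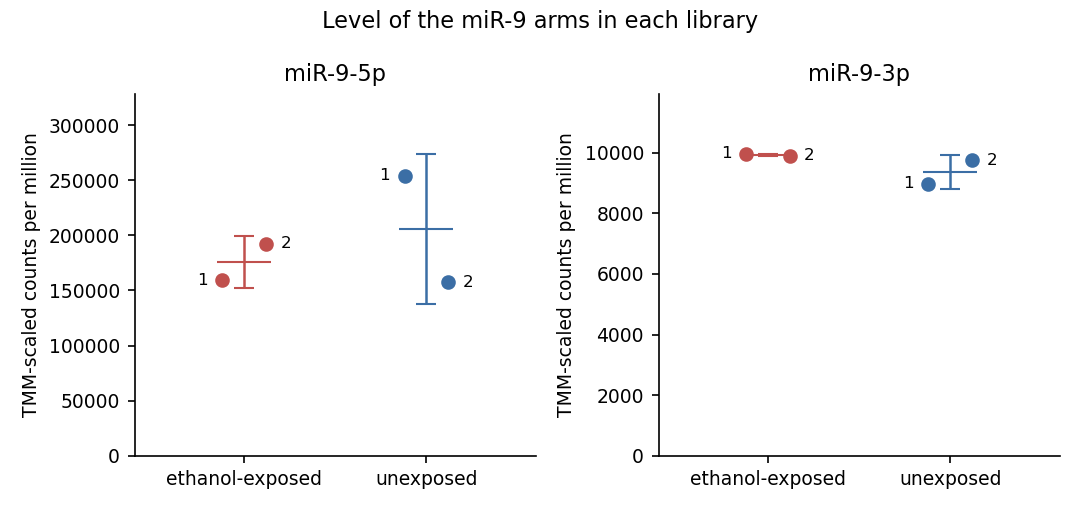
TMM-scaled level (CPM) of miR-9-5p (left) and miR-9-3p (right) in the ethanol-exposed (red) and unexposed (blue) cultures, numbered by replicate, with the group mean and SD (n = 2). The exposed cultures lie between the unexposed cultures for miR-9-5p, and just above them for miR-9-3p (9909 and 9964 against 8970 and 9749 CPM).

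For miR-9-3p the scaled level was 9964 and 9909 CPM with ethanol and 8970 and 9749 CPM without. Both exposed values were above both unexposed values, and the gap between the lower exposed and the higher unexposed value was smaller than that between the unexposed replicates. On the scale of plain shares the groups overlapped. Over all tested miRNAs the groups did not overlap for 288 (33.4%). The means were 9936 ± 39.2 CPM (SD, n = 2) and 9360 ± 551 CPM (SD, n = 2). The log2 fold change was 0.086 (standard error 0.23, 95% confidence interval -0.44 to 0.61), with an adjusted p of 0.983 in edgeR and a two-sided exact permutation p of 0.333. On the TMM scale the strand was even between replicates. It differed there by 0.0081 on the log2 scale between the exposed and by -0.12 between the unexposed replicates (replicate 1 minus 2), and of the 72 abundant miRNAs only 1 and 13, respectively, differed less. On plain shares the replicates lay further apart, at the 1.13% and 0.970% and the 0.759% and 1.04% given above. With each library left out in turn its log2 fold change was between 0.022 and 0.11. It was 0.23 with library size only and -0.021 with upper quartile scaling, so the sign was not fixed by the data.

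**Figure D3:**
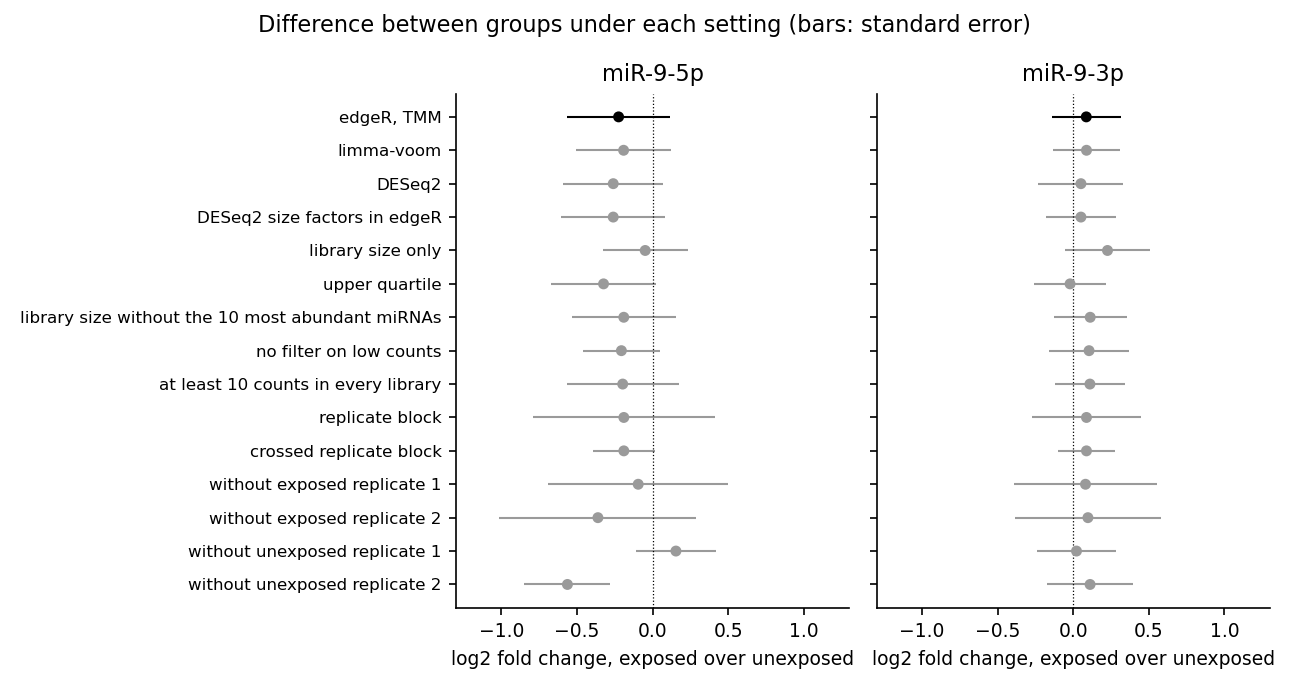
Log2 fold change (exposed over unexposed) of miR-9-5p and miR-9-3p under each test, scaling, filter, block and left-out library, with bars of 1 standard error and the edgeR fit with TMM in black. miR-9-5p lies between -0.56 and 0.15 and turns positive without unexposed replicate 1, and miR-9-3p lies between -0.021 and 0.23.

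The ratio of the strands was examined next, since it compares counts within a library and does not depend on how libraries are scaled. miR-9-5p outnumbered miR-9-3p by 16.0-fold and 19.4-fold with ethanol and by 28.3-fold and 16.1-fold without. Unexposed replicate 1 thus stood apart, and the other 3 libraries lay within 16.0 to 19.4. Of the counts on both strands, miR-9-3p took 5.88% (95% Wilson interval 5.86 to 5.90%) and 4.90% (4.88 to 4.92%) with ethanol and 3.41% (3.39 to 3.43%) and 5.83% (5.80 to 5.87%) without. Without molecular identifiers on the reads, such intervals hold only the error of counting, and the spread between cultures was far wider.

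The mean ratio was 17.7 ± 2.41 (SD, n = 2) in exposed and 22.2 ± 8.61 (SD, n = 2) in unexposed cells. The ratio was tested with limma over 195 precursors, as the log2 of the 5p count over the 3p count with 0.5 added to each. These were the precursors paired by name (strands named alike except for 5p and 3p) of which both strands passed the filter. Strands named with a copy number, such as let-7f-1-3p and miR-125b-1-3p, passed the filter but were left out with their partners. Of the 195, 5 (2.56%) had an unadjusted P under 0.05 and 0 (0%) an adjusted p under 0.05, and miR-9 was in neither number. Its log2 ratio differed by -0.28 (exposed minus unexposed, standard error 0.38, 95% confidence interval -1.21 to 0.66), with an adjusted p of 0.942 in limma and a two-sided exact permutation p of 0.667. The groups overlapped for miR-9, and did not overlap for 58 of the 195 (29.7%). Without unexposed replicate 1 the difference was 0.13, and without unexposed replicate 2 it was -0.68, so 1 culture set its direction.

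Unexposed replicate 1 lay 0.54 above the mean log2 ratio of the 4 libraries. Among the 195 precursors paired by name, 90 had at least 10000 counts, and in that library 17 of the 90 deviated by more, in either direction. Exposed replicate 1 and unexposed replicate 2 lay -0.28 and -0.27 from the mean, and 37 and 35 of the 90 deviated by more there. Taking the more abundant strand over the less abundant strand of each of the 90, the median deviation was 0.093 in unexposed replicate 1, 0.0089 in exposed replicate 2, -0.063 in unexposed replicate 2 and -0.094 in exposed replicate 1. The ratio was raised in unexposed replicate 1 for 54 of the 90. The part of this library-wide shift in the miR-9 ratio was not tested. Between replicates of a group the miR-9 ratio had an SD of 0.43 on the log2 scale, against a median of 0.28 over the 90, of which 26 had a larger one.

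**Figure D4:**
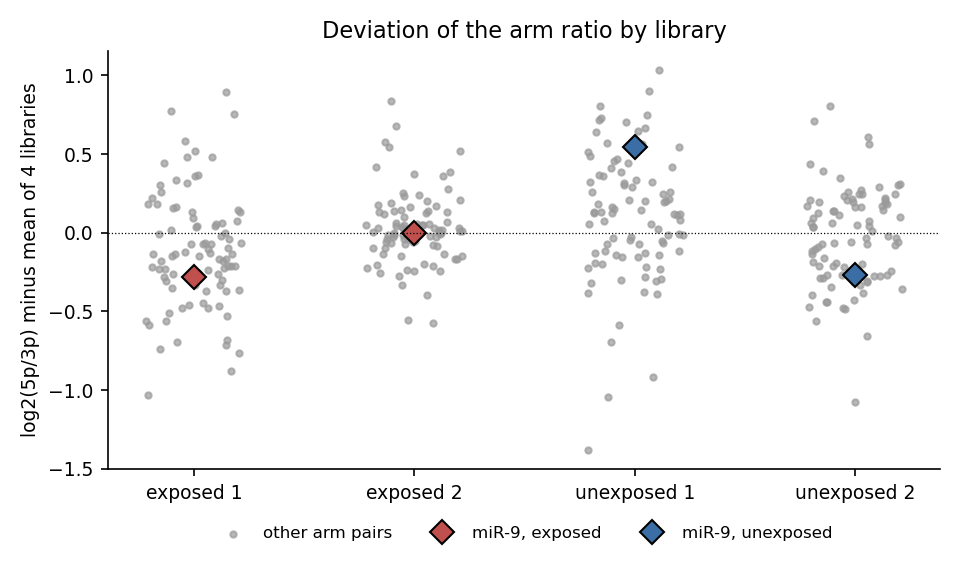
Deviation of the log2 ratio of 5p over 3p counts from its mean over the 4 libraries, by library, for the 90 precursors with at least 10000 counts (grey points) and for miR-9 (diamonds, red for exposed and blue for unexposed). miR-9 lies 0.54 above its mean in unexposed replicate 1 and within 0.28 of it in the other libraries.

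The less abundant strand of miR-9 was nevertheless common. By mean share miR-9-3p was first among the less abundant strands of the 195 precursors. miR-30a-3p (0.206%), miR-335-5p (0.172%) and miR-423-5p (0.150%) followed, named here after their values were seen, and miR-9-3p stood 4.73-fold above the first of them. The 195 leave out strands named with a copy number, such as miR-125b-1-3p (means of 2019 CPM in exposed and 1374 CPM in unexposed cells). Among the precursors paired by name, miR-9 was not unusual in how it divided its strands. miR-9-3p was on average 5.01% of both strands, the less abundant strand took a median of 2.38% over the 90 precursors (quartiles 0.442 and 9.33%), and for 30 of the 90 its part was higher than for miR-9. The 5p strand was the more abundant for 48 of the 90, and 35 of these favoured it by more than miR-9 did.

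Among the 195 precursors paired by name, the 5 with the most counts besides miR-9 had widely differing ratios. miR-99a favoured its 5p strand by 12599-fold to 25611-fold and let-7i by 4631-fold to 20046-fold, while miR-92b had 0.0119 to 0.0237 reads of its 5p strand for each of its 3p strand. let-7a lay between 353-fold and 425-fold. miR-99b, at 21.4-fold to 23.8-fold, was the fifth of these and also among the 5 closest to miR-9 by mean log2 ratio, of the 90 precursors with at least 10000 counts. The others of those closest were miR-340 (19.2-fold to 25.04-fold), miR-130b (14.9-fold to 19.0-fold), miR-181b (24.2-fold to 25.97-fold) and miR-769 (21.8-fold to 27.3-fold). For each of these 5 the 4 libraries lay closer together than for miR-9, which spanned 16.0-fold to 28.3-fold. Of the precursors with fewer counts, miR-3059 (1074 counts in all) and miR-216b (9278 counts) had mean ratios closer still, and miR-3059 spanned 15.25-fold to 32.4-fold, more widely than miR-9. Both were named after their values were seen.

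**Figure D5:**
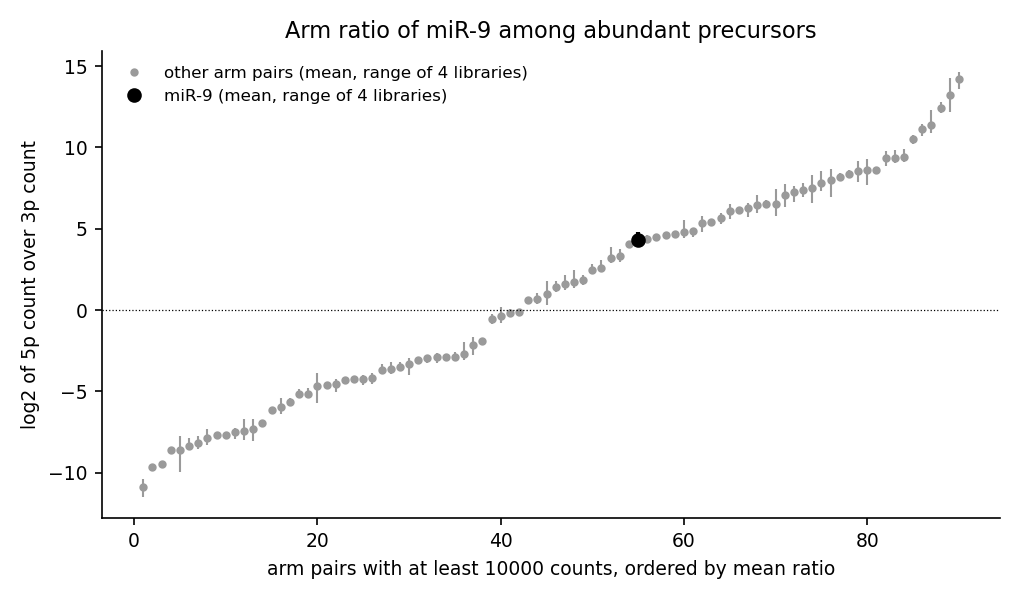
Log2 of the 5p count over the 3p count for the 90 precursors with at least 10000 counts, ordered by the mean of 4 libraries, with points for means and lines for ranges. miR-9 (black) favours its 5p strand, with 35 precursors favouring theirs by more.

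Of the 12 miRNAs known for neurons, all were tested, 1 was higher in exposed cells with an unadjusted P under 0.05 in edgeR (4.52% of all tested miRNAs had such a P in either direction) and 0 were lower. Their median log2 fold change was 0.21, against -0.010 over all tested miRNAs, and the groups did not overlap for 4 of the 12 (33.4% of all tested miRNAs). The one with the low P was miR-124-3p, at 5406 and 3362 CPM with ethanol and 2948 and 2190 CPM without. The fold change was 0.77 on the log2 scale (standard error 0.30), with an adjusted p of 0.922 in edgeR and an exact permutation p of 0.333. The lowest value of the list belonged to miR-7-5p, with a log2 fold change of -0.64 (standard error 0.35, adjusted p of 0.922 in edgeR). That of miR-132-3p, a miRNA induced by neuronal activity, was 0.19 (standard error 0.20), and that of miR-128-3p, a brain-enriched miRNA, was 0.31 (standard error 0.31).

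The profiles of the strands across the 4 libraries were compared with those of 375 other miRNAs with a mean of at least 10 CPM, by the root mean square difference of log2 CPM after centring each miRNA on its own mean. Nearest to miR-9-5p were miR-135a-5p (0.047), miR-140-3p (0.052) and miR-362-5p (0.058), against a median of 0.33 over all candidates. Nearest to miR-9-3p were miR-92a-3p (0.015), miR-653-5p (0.037) and miR-1276 (0.037), against a median of 0.23. The strands were not near to each other. Their distance was 0.33, and miR-9-3p came 189th in order of nearness to miR-9-5p, while miR-9-5p came 291st in order of nearness to miR-9-3p. With 4 libraries such likeness is a description only.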

How the data were processed

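Small RNA-seq counts of 4 libraries (2 ethanol-exposed, 2 unexposed cultures) were used. Libraries were made with a NEBNext kit, and the authors deposited the unnormalized read counts that CAP-miRseq gave for each mature miRNA. The submitters' processing notes name hg19. The CAP-miRseq version, the miRNA annotation release and the handling of reads that match several precursors are not given in the sources used here. Conditions and replicate numbers came from the sample labels. With replicate cultures of 1 cell line, P values weigh a difference only against the spread between these cultures. In edgeR and limma that spread is estimated partly from the other miRNAs or precursors.

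Counts were filtered with filterByExpr (minimum count 10, minimum total 15), scaled by TMM and tested with edgeR 4.0.16 in R 4.3.3, with Benjamini-Hochberg adjustment. Strand ratios were tested with limma 3.58.1 over pairs named alike except for 5p and 3p. limma-voom and DESeq2 1.42.0 were alternatives, beside other scalings, filters, the replicate block and leaving out each library. The strands, lists and rules for named miRNAs were chosen with earlier results of these data known. Named were miRNAs sharing a seed, the 10 most abundant, neighbours of miR-9-3p in rank, 12 miRNAs of neurons, the 3 profiles nearest to each strand, and 5 precursors each with the highest counts and the closest ratio (the latter of those with at least 10000 counts). Sequences are RefSeq's, and loci are those of GRCh38.p14 and GENCODE 29, matched by name because the counts carry no coordinates.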

Additional observations from a re-analysis of the deposited data

How the results depend on the processing

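Depth did not limit the strands, which had at least 105804 counts in every library, but 2 cultures per group did. In every alternative run with all 4 libraries miR-9-5p was lower in exposed cells and the miR-9 ratio was lower, without an unadjusted P under 0.05. miR-9-3p kept its sign except with upper quartile scaling (-0.021). With 1 library left out in turn, the log2 fold change was -0.56 to 0.15 for miR-9-5p and 0.022 to 0.11 for miR-9-3p, and the ratio differed by -0.68 to 0.13. The values 0.15 and 0.13 are those without unexposed replicate 1, and -0.56 is that without unexposed replicate 2, where the unadjusted P of edgeR was under 0.05. With the replicate block, the log2 fold change was -0.19 for miR-9-5p and 0.088 for miR-9-3p, and the ratio differed by -0.28. The block changed no call of the strands.

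The number of miRNAs with an unadjusted P under 0.05, 39, became 94 with no filter on low counts and 25 with the replicate block. Of the 12 miRNAs of neurons it was 2 with no filter in place of 1. For strand ratios, 5 became 3 with at least 100 counts of each strand in every library and 44 with no filter. The difference of replicate 1 minus 2 did not go together between the groups (correlation -0.186 over 863 miRNAs). With 1 such difference per group, this cannot show whether libraries of equal number were handled together. Under a crossed replicate block, an alternative picked with the data in view, the numbers were 59, 2 and 8. The number of miRNAs with an adjusted p under 0.05 in edgeR, 0, became 6 with no filter and 1 to 18 with 1 library left out.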
